A study of Mus musculus with 9 samples.

Results

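The genes described here are the mouse orphan and adhesion G protein-coupled receptors, taken as every gene whose symbol is Gpr followed by a number (with or without a final letter) or Adgr followed by a letter and a digit. The deposited table of 54146 genes holds 98 of them, 71 with Gpr symbols and 27 with Adgr symbols. RNA was sequenced from cells sorted out of quadriceps muscle infiltrates of adult mice, with a gate that kept live CD45+ Siglec-F+ cells free of CD11c, Gr1 and class II MHC, the phenotype of eosinophils. Each of 3 groups has 3 libraries, which the design text calls biological replicates. The mdx_IL5Tg mice carry both the dystrophin mutation of the mdx strain and an interleukin-5 transgene. The mdx mice lack dystrophin, a model of Duchenne muscular dystrophy, and carry no transgene. The IL5Tg mice carry the transgene, which makes eosinophils abundant. Neither the promoter of the transgene nor any pooling of animals is given in the sources used here. The strain field gives mdx for every library, also for IL5Tg, in conflict with the titles, which were followed here.

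G protein-coupled receptors are cell-surface proteins that cross the membrane several times and pass a signal from outside the cell to G proteins inside it. Orphan receptors are those named before a ligand was agreed on, and a number of them have since been matched to lipids, metabolites, protons or peptides. Adhesion receptors carry a long extracellular region that binds cells or matrix, and most cut themselves at a site close to the membrane. On leukocytes, receptors of both kinds take part in migration, in sensing of tissue damage and acidity, and in contact with other cells.

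Total counts ran from 26752780 to 58368283 per library. The transgene gave 664, 724 and 696 CPM of Il5 (read counts scaled to library size with TMM factors) in mdx_IL5Tg, 0.335, 0.402 and 0.265 CPM in mdx and 523, 317 and 460.5 CPM in IL5Tg. The summed level of 10 eosinophil markers was 5078 to 5521 CPM in mdx_IL5Tg, 2107 to 2910.2 CPM in mdx and 5674 to 15901 CPM in IL5Tg, with none at 0. Siglecf, which encodes the sort antigen, was at 529, 449 and 584 CPM in mdx_IL5Tg, 164, 129 and 177 CPM in mdx and 329.9, 336 and 394 CPM in IL5Tg, so the mdx libraries were lowest. Markers of other cells were present in all 9 libraries. Macrophage markers (12 genes) summed to 379 to 589 CPM in mdx_IL5Tg, 936 to 1732 CPM in mdx and 250.02 to 292 CPM in IL5Tg. Fibroblast markers (7 genes) summed to 718 to 2881, 4236 to 10643 and 931 to 2195 CPM in the same 3 groups. In such bulk samples, fewer cells of a type and less RNA per cell cannot be told apart.

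Promoter windows before listed starts of 5 receptors that changed between the groups are printed. These 5 were picked among the called receptors with a window free of annotated exons. Others also had such a window, among them Adgre4, Adgrl1, Gpr174, Gpr4 and Gpr45. The 2 listed starts of Gpr35 lie inside the annotated span of the gene, so its printed window is DNA within the gene. Sequences come from the RefSeq table of the GRCm38.p6 build, which matched 70 of the 98 receptors, and run 5′ to 3′ on the strand of the gene over the 250 bases before its listed start. Capitals mark matches, on either strand, to 4 short motifs. TTCNNNGAA is the palindrome of the STAT proteins, through which interleukin-5 signals. AGATAA is a motif of the GATA family and AGGAAG one of the ETS family, both known in blood cells. ACGTG is the core of the hypoxia response element.
Gpr35, chr1:92978653-92978902, plus strand, before 1 of its 2 listed starts: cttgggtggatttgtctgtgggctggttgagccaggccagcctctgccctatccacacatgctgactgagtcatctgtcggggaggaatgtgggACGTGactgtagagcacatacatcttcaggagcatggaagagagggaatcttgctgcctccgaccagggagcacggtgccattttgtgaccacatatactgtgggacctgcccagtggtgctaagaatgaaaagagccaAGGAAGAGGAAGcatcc
Gpr55, chr1:85961056-85961305, minus strand: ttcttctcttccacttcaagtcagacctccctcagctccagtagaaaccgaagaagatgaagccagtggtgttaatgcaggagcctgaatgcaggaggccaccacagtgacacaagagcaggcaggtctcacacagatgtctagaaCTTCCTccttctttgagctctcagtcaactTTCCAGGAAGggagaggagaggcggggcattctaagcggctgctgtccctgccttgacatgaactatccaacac
Adgrg5, chr8:94923444-94923693, plus strand: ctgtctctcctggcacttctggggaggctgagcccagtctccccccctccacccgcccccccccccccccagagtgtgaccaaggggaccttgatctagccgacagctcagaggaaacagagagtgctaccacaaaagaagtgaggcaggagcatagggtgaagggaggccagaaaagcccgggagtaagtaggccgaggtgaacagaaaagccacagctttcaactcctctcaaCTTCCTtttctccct
Gpr141, chr13:19824258-19824507, minus strand: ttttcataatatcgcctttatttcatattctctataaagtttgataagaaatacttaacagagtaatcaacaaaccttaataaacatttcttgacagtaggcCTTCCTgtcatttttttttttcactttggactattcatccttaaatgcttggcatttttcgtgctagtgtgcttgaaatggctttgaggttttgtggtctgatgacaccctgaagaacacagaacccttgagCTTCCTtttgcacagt
Gpr160, chr3:30855700-30855949, plus strand: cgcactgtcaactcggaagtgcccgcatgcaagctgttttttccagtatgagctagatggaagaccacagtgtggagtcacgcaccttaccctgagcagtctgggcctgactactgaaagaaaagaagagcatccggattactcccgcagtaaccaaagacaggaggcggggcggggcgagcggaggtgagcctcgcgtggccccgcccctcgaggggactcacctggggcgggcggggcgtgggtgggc
The Gpr55 window holds a match to TTCNNNGAA that overlaps a match to AGGAAG. The Gpr160 window holds none of the 4 motifs, and neither does the window before the other listed start of Gpr35. Over all 32851 promoters in the table, TTCNNNGAA was found in 7.02%, AGATAA in 9.99%, AGGAAG in 29.5% and ACGTG in 16.6%. Over the 56 promoters listed for the tested receptors, the shares were 8.93%, 3.57%, 32.1% and 19.6% in the same order. These matches describe letters in a window and show no binding.

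Of the 98 receptors, 52 had enough counts to be tested, 17 adhesion and 35 other, and 46 did not, with 0 to 85 counts over all 9 libraries. Adgrf3, Adgrg4, Gpr142, Gpr143 and Gpr25 had no count in any library. Of the tested receptors, 7 averaged above 100 CPM, 16 between 10 and 100 CPM, 15 between 1 and 10 CPM and 14 under 1 CPM. All members together summed to 5571, 5084 and 5646 CPM in mdx_IL5Tg, 3578, 3415 and 3779 CPM in mdx and 3749.5, 4052 and 4299 CPM in IL5Tg. The 5 most abundant genes held 75.3% to 82.9% of that sum, so the total mostly follows a few receptors. The passage through the count filter depended on the group where the gene was highest for Adgrv1, Gpr162, Gpr174 and Gpr84 (mdx) and for Gpr45 and Gpr85 (IL5Tg), so a difference of these genes from that group was built in.

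Compared per kilobase of exon (CPM per kb), 3 adhesion receptors of the Adgre family, Gpr132 and Gpr35 stood highest over all libraries. Adgre1 (ENSMUSG00000004730.14, chromosome 17, 57358691 to 57483527, + strand), the classical surface antigen of mouse macrophages that eosinophils of the mouse also carry, averaged 693 ± 59.2 CPM per kb in mdx_IL5Tg, 371 ± 38.4 in mdx and 492 ± 57.04 in IL5Tg (SD, n = 3 each). Adgre5 (ENSMUSG00000002885.14, chromosome 8, 83723251 to 83741326, - strand), a receptor of activated leukocytes, averaged 311 ± 38.2 CPM per kb in mdx_IL5Tg, 232 ± 34.3 in mdx and 249 ± 33.4 in IL5Tg. In these 3 groups Gpr132 averaged 124 ± 16.9, 122 ± 19.6 and 70.4 ± 9.03 CPM per kb. Adgre4 averaged 111 ± 16.98 CPM per kb in mdx_IL5Tg, 64.7 ± 13.1 in mdx and 83.5 ± 7.38 in IL5Tg. Adgre1 lay above Adgre5 and Adgre5 above Gpr132 in all 9 libraries. Gpr132 and Adgre4 changed places among the groups: Gpr132 was higher in mdx, while in IL5Tg Adgre4 averaged higher. Gpr35, Gpr55, Gpr65, Gpr137b, Adgrg5 and Adgrf5 followed, from 44.04 CPM per kb for Gpr35 to 11.5 for Adgrf5 averaged over all libraries.

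**Figure D1:**
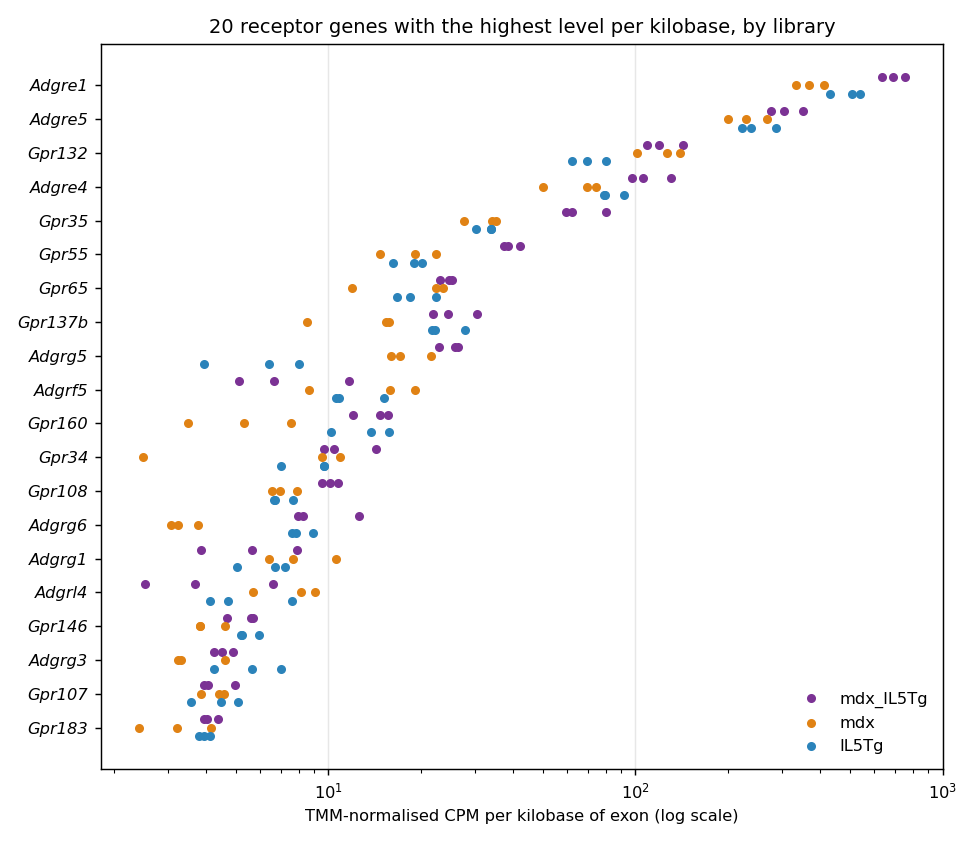
Level of the 20 receptors highest per kilobase, as TMM-normalised CPM per kb of exon on a log10 axis; points are libraries, with mdx_IL5Tg, mdx and IL5Tg drawn from top to bottom in each row. Adgre1 and Adgre5 lead in every library, and the mdx_IL5Tg points of Gpr35 and Gpr55 lie right of those of the other groups.

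Expression was compared between the groups pairwise, in mdx_IL5Tg against IL5Tg (both with the transgene, the first with the mdx mutation by its title), mdx_IL5Tg against mdx (with and without the transgene) and mdx against IL5Tg. The comparisons share libraries, and each is given by its own values. Genes were called at an adjusted p under 0.05 (edgeR's quasi-likelihood test, Benjamini-Hochberg over 15886 genes), and fold changes are log2 with the first-named group on top. Each fit was repeated under 17 alternatives (other scalings, filters and tests, and the removal of libraries). Of the 52 tested receptors, 25 were called in at least 1 comparison and 27 in none. In mdx_IL5Tg against IL5Tg, 5 were higher (9.62% of those tested, with 4.35% of all tested genes called higher) and 2 lower (3.85%, with 2.87% of all genes). In mdx_IL5Tg against mdx, 10 were higher (19.2%, with 10.1% of all genes) and 11 lower (21.2%, with 11.5% of all genes). With library totals in place of TMM factors, that split was 6 higher and 19 lower, and the median of all genes was then -0.46 in place of -0.13. In mdx against IL5Tg, 9 were higher (17.3%, with 11.8% of all genes) and 6 lower (11.5%, with 8.96% of all genes). The median log2 fold change of the tested receptors was -0.08, -0.35 and 0.07 in these 3 comparisons, beside -0.05, -0.13 and 0.01 over all tested genes. Counts of calls depended on single libraries: without mdx_IL5Tg S1, 8 receptors were higher and 2 lower in mdx_IL5Tg against mdx, and 3 were higher and 1 lower in mdx_IL5Tg against IL5Tg. In mdx_IL5Tg against mdx the lower count also fell by more than 1.5 times without mdx_IL5Tg S3 (5), mdx S4 (4), mdx S6 (6) or IL5Tg S7 (7). Likewise, mdx against IL5Tg had 5 higher without mdx S4, and mdx_IL5Tg against IL5Tg had 3 higher without IL5Tg S7 or S8, 1 lower without mdx_IL5Tg S2, IL5Tg S7 or IL5Tg S8, and 4 lower without mdx_IL5Tg S3.

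**Figure D2:**
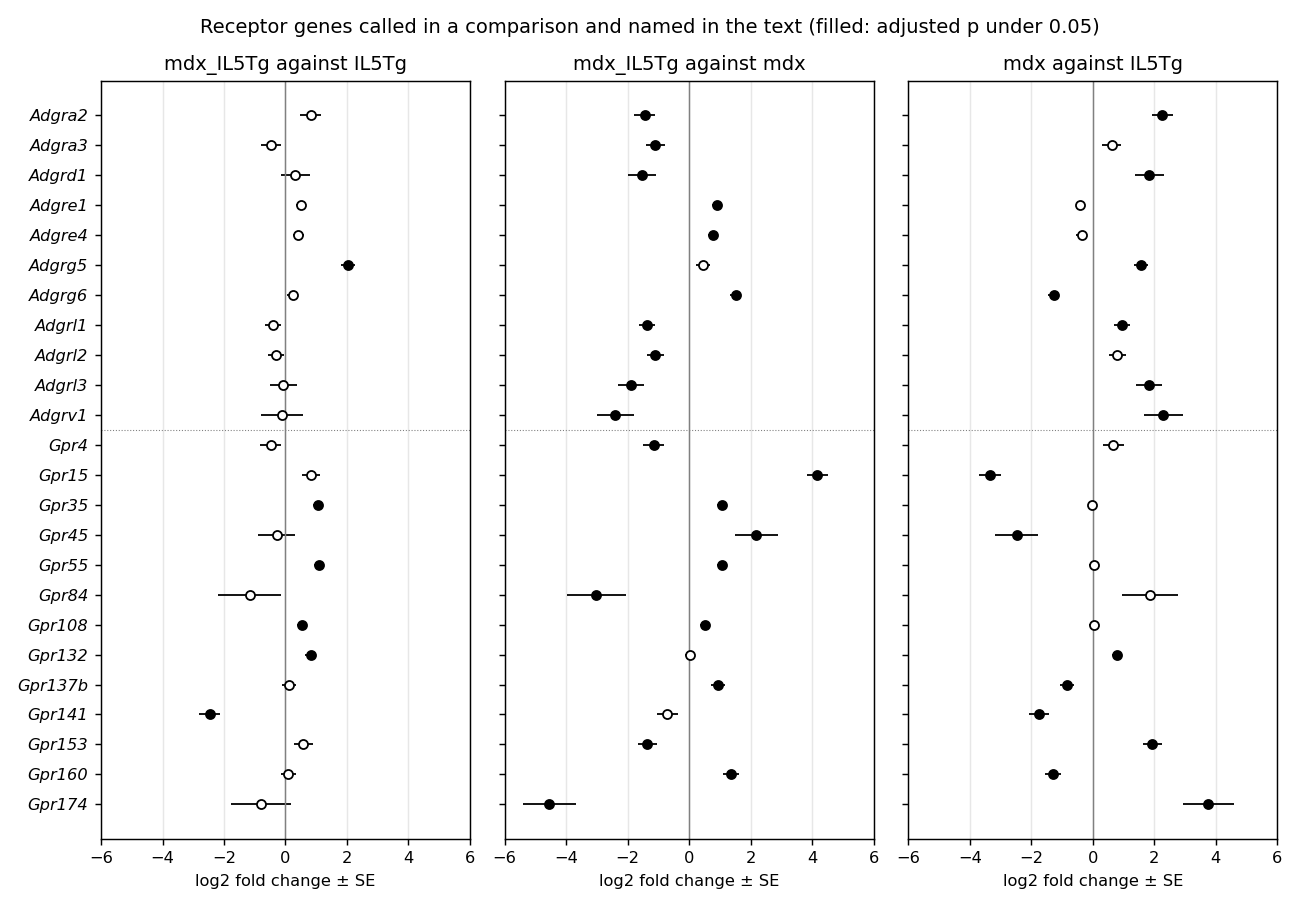
Log2 fold change (point) with its standard error (bar) of 24 receptors called in at least 1 comparison, one panel per comparison. Filled points passed an adjusted p of 0.05; Gpr35 and Gpr55 lie right of 0 in both panels of mdx_IL5Tg and near 0 in mdx against IL5Tg, while Gpr15 and Gpr174 reach furthest in the panels with mdx.

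Among receptors for lipids and metabolites, Gpr35 and Gpr55 were higher in mdx_IL5Tg than in either single condition. Gpr35 (ENSMUSG00000026271.15, chromosome 1, 92950865 to 92986391, + strand), which responds to kynurenic acid and other tryptophan metabolites, was at 301, 287 and 388 CPM in mdx_IL5Tg, 165, 134 and 169.9 CPM in mdx and 163, 163 and 146 CPM in IL5Tg. All 3 mdx_IL5Tg libraries lay above the other 6, which overlapped each other. Its fold change was 1.05 (SE 0.15, adjusted p = 0.0066 by edgeR) against IL5Tg and 1.06 (SE 0.15, adjusted p = 0.0013 by edgeR) against mdx, and -0.01 (adjusted p = 0.96 by edgeR) in mdx against IL5Tg.

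Gpr55 (ENSMUSG00000049608.8, chromosome 1, 85938318 to 85961007, - strand), a receptor for lysophosphatidylinositol, showed the same order of groups, with 157, 139 and 143 CPM in mdx_IL5Tg, 54.9, 83.2 and 71.4 CPM in mdx and 60.2, 70.6 and 75.2 CPM in IL5Tg. Its mdx_IL5Tg libraries also stood above all others, and its fold change was 1.09 (SE 0.16, adjusted p = 0.0069 by edgeR) against IL5Tg and 1.07 (SE 0.16, adjusted p = 0.0016 by edgeR) against mdx. In mdx against IL5Tg it was 0.02 (SE 0.16, adjusted p = 0.93 by edgeR). The 4 calls of Gpr35 and Gpr55 were kept under all 17 alternatives run.

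A pair of rare lipid receptors ran the other way. Gpr174 (ENSMUSG00000073008.11, chromosome X, 107255878 to 107296769, + strand), a lysophosphatidylserine receptor of lymphocytes, had 2, 2 and 7 counts in mdx_IL5Tg, 127, 25 and 118 counts in mdx and 9, 5 and 0 counts in IL5Tg. These counts were 0.0395, 0.0504 and 0.183 CPM in mdx_IL5Tg, 2.66, 0.837 and 2.85 CPM in mdx and 0.288, 0.162 and 0 CPM in IL5Tg, and each mdx library lay above the other 6. The fold change was -4.55 (SE 0.87, adjusted p = 0.0054 by edgeR) in mdx_IL5Tg against mdx and 3.76 (SE 0.84, adjusted p = 0.011 by edgeR) in mdx against IL5Tg. Gpr174 passed the count filter through mdx, where it was highest, so these calls are a description and carry no support of their own. With so few counts the size rests on single libraries: it was -5.37 in mdx_IL5Tg against mdx without mdx_IL5Tg S3, and 4.53 and 3.16 in mdx against IL5Tg without IL5Tg S7 and without IL5Tg S9. Markers of T and NK cells (11 genes) summed to 2.53 to 2.72 CPM in mdx_IL5Tg, 1.97 to 4.27 CPM in mdx and 3.96 to 9.38 CPM in IL5Tg, with Ncr1 at 0 in mdx_IL5Tg and in IL5Tg. The IL5Tg sums were mostly Cd3d and Nkg7, the latter at 5.63, 0.746 and 2.05 CPM there. Of 5 tested, 1 was called higher and 2 lower in mdx than in IL5Tg. In mdx_IL5Tg against mdx, 1 was higher and 0 lower. Single markers differed in order: Cd4 was at 0.0988, 0.302 and 0.0261 CPM in mdx_IL5Tg, 1.09, 0.469 and 0.482 CPM in mdx and 0.128, 0.0325 and 0 CPM in IL5Tg, and Cd3d was at 1.62, 1.08 and 1.49, 0.188, 0.167 and 0.193 and 2.496, 2.69 and 2.27 CPM in these groups. The part of such cells in the Gpr174 result was not tested.

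Gpr84, a receptor of myeloid cells for medium-chain fatty acids, had 6, 6 and 0 counts in mdx_IL5Tg, 68, 7 and 25 counts in mdx and 9, 9 and 1 counts in IL5Tg. The high mean of mdx, through which Gpr84 passed the count filter, came mainly from S4. The call in mdx_IL5Tg against mdx, -3.02 (SE 0.96, adjusted p = 0.047 by edgeR), ended without mdx_IL5Tg S1, mdx_IL5Tg S2, mdx_IL5Tg S3, mdx S4, mdx S6 or any single IL5Tg library, with limma voom, or with only the groups compared (adjusted p from 0.052 to 0.22), and the value was -2.09 without mdx S4 and -2.36 without mdx_IL5Tg S3. Exons of Gpr84 share 39.5% of their bases with Gm49482 on the opposite strand, and without a stated strand setting the reads of such pairs cannot be told apart. As counted, Gm49482 was at 0 CPM in every mdx library and at 0 to 0.0783 CPM in the others. In this role 6 of 9 measured receptors were tested, with 2 higher in mdx_IL5Tg against IL5Tg, 2 higher and 2 lower in mdx_IL5Tg against mdx, and 1 higher in mdx against IL5Tg. Over all tested genes the shares called were 4.35% higher in the first, 10.1% higher and 11.5% lower in the second and 11.8% higher in the third. Gpr34, which binds lysophosphatidylserine, and Gpr183, which guides cells along oxysterols, were not called in any comparison. Gpr34 averaged 23.9 ± 5.12 CPM in mdx_IL5Tg, 15.99 ± 9.44 CPM in mdx and 18.4 ± 3.26 CPM in IL5Tg, and Gpr183 averaged 11.9 ± 0.687, 9.43 ± 2.503 and 11.4 ± 0.477 CPM in these groups (SD, n = 3 each).

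Among receptors that sense protons, Gpr132 stood out by its level. Gpr132 (ENSMUSG00000021298.8, chromosome 12, 112850873 to 112868228, - strand), which also responds to oxidised fatty acids, was at 386, 297 and 325 CPM in mdx_IL5Tg, 274, 378 and 344 CPM in mdx and 168, 188 and 217 CPM in IL5Tg. The 3 IL5Tg libraries were below the other 6. It was higher in mdx_IL5Tg than in IL5Tg by 0.81 (SE 0.16, adjusted p = 0.023 by edgeR) and higher in mdx than in IL5Tg by 0.80 (SE 0.16, adjusted p = 0.0075 by edgeR), while mdx_IL5Tg against mdx gave 0.02 (SE 0.16, adjusted p = 0.95 by edgeR). The call in mdx_IL5Tg against IL5Tg ended without mdx_IL5Tg S1, IL5Tg S7 or IL5Tg S8 (adjusted p from 0.058 to 0.12).

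Gpr4, the acid sensor of endothelium, averaged 2.98 ± 0.833 CPM in mdx_IL5Tg, 6.58 ± 2.09 CPM in mdx and 4.15 ± 1.42 CPM in IL5Tg and was lower in mdx_IL5Tg than in mdx, at -1.14 (SE 0.34, adjusted p = 0.037 by edgeR). The Gpr4 call ended without mdx_IL5Tg S1, mdx_IL5Tg S3, mdx S4, mdx S6, IL5Tg S7 or IL5Tg S9, or with only the groups compared (adjusted p from 0.052 to 0.18). Gpr65, the acid sensor of lymphoid and myeloid cells, averaged 50.4 ± 2.49 CPM in mdx_IL5Tg, 40.1 ± 13.3 CPM in mdx and 39.8 ± 6.04 CPM in IL5Tg and was called in no comparison. Exons of Gpr65 overlap Gm47566 on the opposite strand over 24.7% of their bases, and Gm47566 was at 0 CPM in every library.

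Gpr15 (ENSMUSG00000047293.7, chromosome 16, 58717433 to 58719070, - strand), a homing receptor that draws T cells to the colon and skin, had the smallest adjusted p of all the receptors. It was at 5.61, 4.96 and 4.20 CPM in mdx_IL5Tg, 0.314, 0.167 and 0.313 CPM in mdx and 2.08, 3.15 and 3.13 CPM in IL5Tg, from 284, 197 and 161 counts in mdx_IL5Tg, 15, 5 and 13 counts in mdx and 65, 97 and 84 counts in IL5Tg. The lowest transgenic library, IL5Tg S7, still lay above every mdx library. Its fold change was 4.17 (SE 0.35, adjusted p = 3.2e-05 by edgeR) in mdx_IL5Tg against mdx and -3.35 (SE 0.34, adjusted p = 1.5e-04 by edgeR) in mdx against IL5Tg. In mdx_IL5Tg against IL5Tg it was 0.82 (SE 0.29, adjusted p = 0.1 by edgeR), which did not pass although the groups did not overlap. Both calls were kept under all 17 alternatives. Exons of Gpr15 overlap those of Cpox on the other strand over 12.5% of their bases, and Cpox averaged 5.06 ± 0.224 CPM in mdx_IL5Tg, 4.33 ± 1.20 CPM in mdx and 5.66 ± 1.87 CPM in IL5Tg and was not called.

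**Figure D3:**
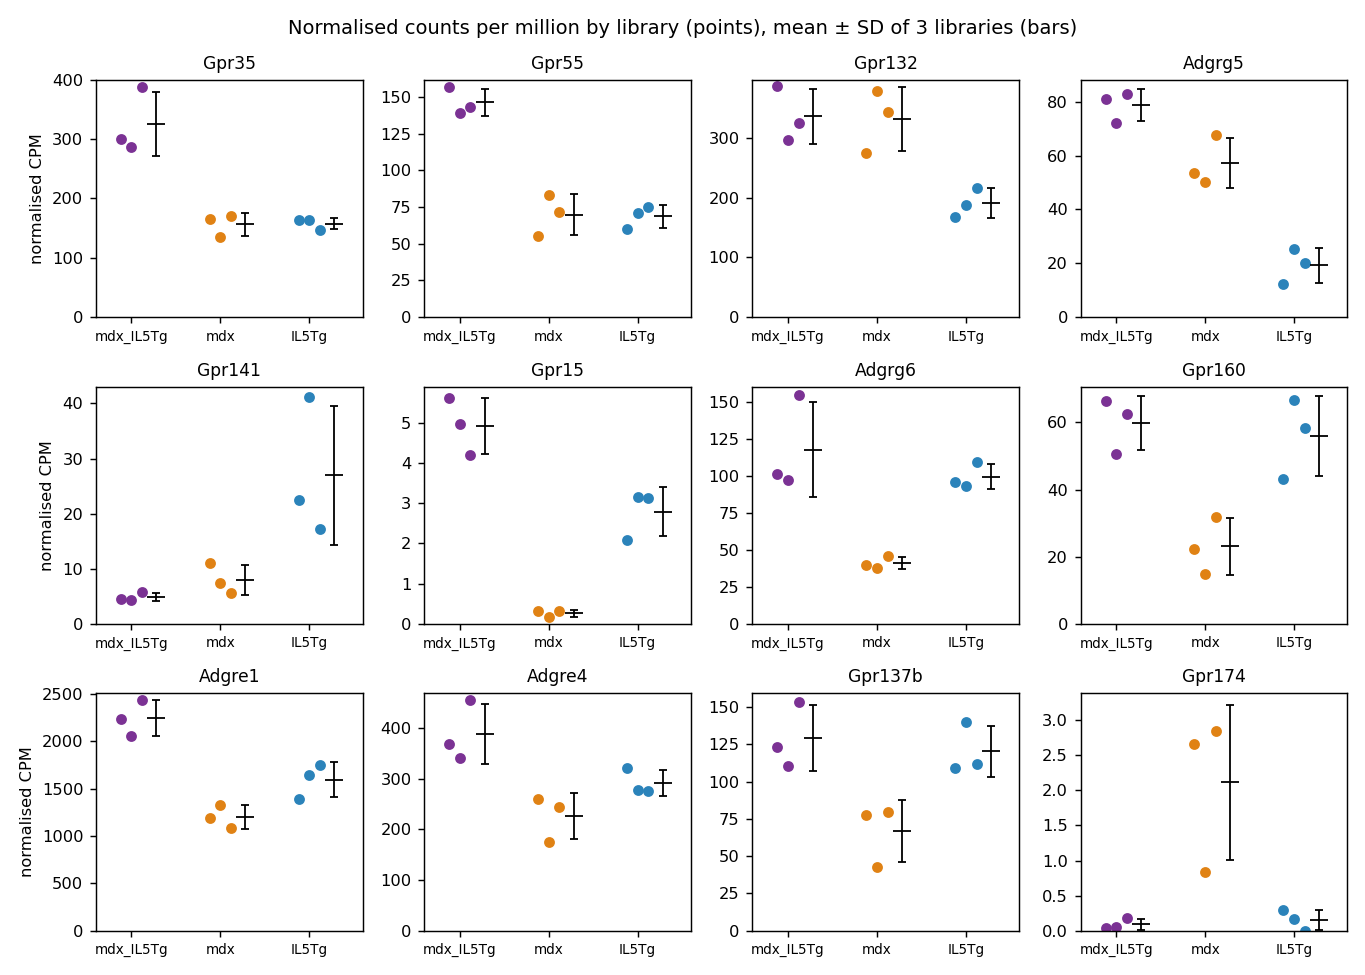
TMM-normalised CPM of 12 receptors in each library; points are libraries, bars give the mean ± SD of 3 libraries, and the groups run mdx_IL5Tg, mdx, IL5Tg from left to right. Gpr35 and Gpr55 are highest in mdx_IL5Tg, Gpr15, Adgrg6 and Gpr160 are lowest in mdx, Adgrg5 is lowest and Gpr141 highest in IL5Tg, and Gpr174 is highest in mdx.

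The adhesion receptors of leukocytes did not move as 1 block. Adgre1 was at 2238, 2056 and 2439 CPM in mdx_IL5Tg, 1190.3, 1330.2 and 1082 CPM in mdx and 1389, 1641 and 1749 CPM in IL5Tg. All mdx_IL5Tg libraries were above all others. It was higher in mdx_IL5Tg than in mdx by 0.90 (SE 0.15, adjusted p = 0.0025 by edgeR), a call kept under all 17 alternatives. It was at 0.49 (SE 0.15, adjusted p = 0.063 by edgeR) against IL5Tg.

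Adgre4 (ENSMUSG00000032915.6, chromosome 17, 55749984 to 55853662, + strand), another receptor of myeloid cells in this family, was at 369, 340.1 and 454 CPM in mdx_IL5Tg, 260.4, 174 and 243 CPM in mdx and 321, 278 and 275 CPM in IL5Tg. Every mdx library was below the other 6. Its fold change in mdx_IL5Tg against mdx was 0.78 (SE 0.17, adjusted p = 0.012 by edgeR), and the call ended with library totals only (adjusted p = 0.11). The macrophage markers moved in the opposite direction in this comparison: 10 of the 12 were lower in mdx_IL5Tg than in mdx. Their part in the Adgre1 and Adgre4 results was not tested.

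Adgre5 was at 1323, 1141 and 1039 CPM in mdx_IL5Tg, 858, 751 and 1008 CPM in mdx and 837, 890.3 and 1076 CPM in IL5Tg. IL5Tg overlapped each of the other groups, while every mdx_IL5Tg library lay above every mdx library. No comparison was called, and mdx_IL5Tg against mdx gave 0.42 (SE 0.16, adjusted p = 0.087 by edgeR). Exons of Adgre5 share 23.8% of their bases with Ddx39 on the opposite strand. Ddx39 averaged 21.5 CPM in mdx_IL5Tg, 18.3 CPM in mdx and 20.5 CPM in IL5Tg.

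On chromosome 8 the adhesion receptors Adgrg5, Adgrg1 and Adgrg3 lie in a row, 31.5 kb and 3.5 kb apart. Adgrg5 (ENSMUSG00000061577.12, chromosome 8, 94923694 to 94943280, + strand), an orphan adhesion receptor of leukocytes, was at 81.2, 72.1 and 82.97 CPM in mdx_IL5Tg, 53.6, 50.2 and 67.8 CPM in mdx and 12.4, 25.2 and 20.1 CPM in IL5Tg. The 3 groups did not overlap. It was higher than in IL5Tg by 2.03 (SE 0.23, adjusted p = 0.0021 by edgeR) in mdx_IL5Tg and by 1.57 (SE 0.23, adjusted p = 0.0012 by edgeR) in mdx, and both calls were kept under all 17 alternatives. The difference of mdx_IL5Tg from mdx, 0.46 (SE 0.22, adjusted p = 0.16 by edgeR), did not pass. Its neighbours were not called in any comparison: Adgrg1, a receptor of cytotoxic lymphocytes and neural precursors, averaged 31.4 ± 10.9 CPM in mdx_IL5Tg, 44.7 ± 11.7 CPM in mdx and 34.3 ± 6.11 CPM in IL5Tg. Adgrg3, a receptor of granulocytes, averaged 31.4 ± 2.32 CPM in mdx_IL5Tg, 25.7 ± 5.40 CPM in mdx and 38.9 ± 9.49 CPM in IL5Tg, and its fold change in mdx against IL5Tg was -0.60 (SE 0.20, adjusted p = 0.057 by edgeR). The sum of dendritic cell markers (10 genes) was also lowest in IL5Tg, although the gate removed CD11c+ and class II MHC+ cells. It ran from 217 to 359 CPM in mdx_IL5Tg, 268 to 346 CPM in mdx and 61.5 to 66.7 CPM in IL5Tg. Itgax, which encodes CD11c, made up 259, 245 and 189.8 CPM of these sums in mdx_IL5Tg, 138, 102 and 122 CPM in mdx and 41.3, 55.6 and 44.1 CPM in IL5Tg. Cd74, H2-Aa and H2-Ab1 made up most of the rest. Of 7 tested dendritic cell markers, 4 were called higher in mdx_IL5Tg and 4 in mdx than in IL5Tg, with 0 lower. Zbtb46 was at 3.75, 5.82 and 2.51 CPM in mdx_IL5Tg, 9.04, 12.1 and 10.9 CPM in mdx and 7.62, 4.74 and 6.52 CPM in IL5Tg. The sum of macrophage markers was also lowest in IL5Tg, and 5 of 12 were higher in mdx_IL5Tg and 11 of 12 in mdx than in IL5Tg. The part of these markers in the Adgrg5 and Gpr132 results was not tested.

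Adgrg6 (ENSMUSG00000039116.6, chromosome 10, 14402583 to 14545659, - strand), known from Schwann cells, where it is needed for myelination, was at 101, 97.1 and 154 CPM in mdx_IL5Tg, 39.7, 37.7 and 45.98 CPM in mdx and 96.01, 93.00 and 109 CPM in IL5Tg. The mdx libraries lay below the other 6, and the transgenic groups overlapped. Its fold change was 1.51 (SE 0.18, adjusted p = 4.5e-04 by edgeR) in mdx_IL5Tg against mdx and -1.27 (SE 0.18, adjusted p = 0.0011 by edgeR) in mdx against IL5Tg, with both calls kept under all 17 alternatives. The sum of eosinophil markers was also lowest in mdx, where 7 of the 10 were called lower than in IL5Tg. Of the 10, 2 were higher in mdx_IL5Tg than in mdx. Single markers differed in order. Il5ra was at 52.1, 52.97 and 69.2 CPM in mdx_IL5Tg, 64.4, 49.2 and 69.8 CPM in mdx and 64.1, 53.97 and 62.5 CPM in IL5Tg. Ccr3 was at 1366, 1441 and 1310 CPM in mdx_IL5Tg, 1109, 809 and 1134 CPM in mdx and 827, 1011 and 1064 CPM in IL5Tg. The part of these markers in the lower Adgrg6, Gpr15 and Gpr160 of mdx was not tested.

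Among orphan receptors with no agreed ligand, Gpr160 was lowest in mdx and Gpr141 highest in IL5Tg. Gpr160 (ENSMUSG00000037661.14, chromosome 3, 30855950 to 30897192, + strand) was at 66.3, 50.7 and 62.5 CPM in mdx_IL5Tg, 22.4, 14.8 and 31.9 CPM in mdx and 43.1, 66.8 and 58.3 CPM in IL5Tg. All mdx libraries lay below the other 6, with a fold change of 1.37 (SE 0.26, adjusted p = 0.0050 by edgeR) in mdx_IL5Tg against mdx and -1.28 (SE 0.26, adjusted p = 0.0068 by edgeR) in mdx against IL5Tg. Both were kept under all 17 alternatives.

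Gpr141 (ENSMUSG00000053101.3, chromosome 13, 19749682 to 19824257, - strand), an orphan receptor of myeloid cells, was at 4.54, 4.33 and 5.80 CPM in mdx_IL5Tg, 10.97, 7.43 and 5.62 CPM in mdx and 22.4, 41.2 and 17.2 CPM in IL5Tg. It was highest in IL5Tg, with no overlap, and its spread there was wide. It was lower in mdx_IL5Tg than in IL5Tg, at -2.46 (SE 0.35, adjusted p = 0.0060 by edgeR), and lower in mdx than in IL5Tg, at -1.75 (SE 0.34, adjusted p = 0.0054 by edgeR), both kept under all 17 alternatives. The sum of neutrophil markers (10 genes measured), although the gate removed Gr1+ cells, was also highest in IL5Tg. It ran from 116 to 168 CPM in mdx_IL5Tg, 12.7 to 337 CPM in mdx and 421 to 1337 CPM in IL5Tg. Ngp made up 861, 337 and 368 CPM of it in IL5Tg. Of the 10, 1 was called higher and 0 lower in mdx_IL5Tg than in IL5Tg, and 2 were lower in mdx than in IL5Tg. Cxcr2 was at 8.79, 9.72 and 11.9 CPM in mdx_IL5Tg, 0.858, 0.736 and 1.54 CPM in mdx and 2.98, 5.09 and 3.17 CPM in IL5Tg. Monocyte markers (6 genes) summed to 214 to 302, 157 to 242 and 253 to 531 CPM in these groups, mostly Ly6c2 and Nr4a1 in IL5Tg. Of the 6, 3 were called higher and 1 lower in mdx than in IL5Tg. In mdx_IL5Tg against IL5Tg, 0 were higher and 1 lower. Cycling cell markers (8 genes) summed to 34.6 to 51.8, 37.8 to 92.2 and 92.4 to 439 CPM in the same order of groups. The part of these markers in the Gpr141 result was not tested.

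Gpr45, an orphan receptor of neurons, had 24, 11 and 17 counts in mdx_IL5Tg, 1, 2 and 7 counts in mdx and 17, 18 and 9 counts in IL5Tg. Its calls, 2.19 (SE 0.69, adjusted p = 0.046 by edgeR) in mdx_IL5Tg against mdx and -2.48 (SE 0.70, adjusted p = 0.030 by edgeR) in mdx against IL5Tg, were not stable, and Gpr45 passed the count filter through IL5Tg, where it was highest. The first ended without mdx_IL5Tg S1, mdx_IL5Tg S3, mdx S4, mdx S5 or any single IL5Tg library, with library totals only, with no filter, with only the groups compared, or without both IL5Tg S7 and mdx S5 (adjusted p from 0.055 to 0.13), and the second ended without mdx S4, mdx S5, IL5Tg S7 or IL5Tg S8, or without both IL5Tg S7 and mdx S5 (adjusted p from 0.064 to 0.11). Without mdx S6 the values were 3.29 and -3.53.

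Among the 8 tested multipass proteins that act inside the cell or are atypical for receptors, Gpr137b and Gpr108 were called. By comparison, 1 was higher in mdx_IL5Tg against IL5Tg, 2 were higher in mdx_IL5Tg against mdx and 1 was lower in mdx against IL5Tg. Over all tested genes the shares called in these directions were 4.35%, 10.1% and 8.96%. Gpr137b, a lysosomal membrane protein that recruits Rag proteins to the lysosome, averaged 129 ± 22.2 CPM in mdx_IL5Tg, 66.7 ± 20.7 CPM in mdx and 120.2 ± 17.3 CPM in IL5Tg (SD, n = 3 each). Its fold change was 0.95 (SE 0.23, adjusted p = 0.015 by edgeR) in mdx_IL5Tg against mdx and -0.85 (SE 0.23, adjusted p = 0.024 by edgeR) in mdx against IL5Tg. The calls ended with library totals only (adjusted p = 0.082) in the first and without IL5Tg S8, or with library totals only (adjusted p from 0.059 to 0.060) in the second. Its pseudogene copy, Gpr137b-ps, averaged 45.7 ± 9.47 CPM in mdx_IL5Tg, 29.97 ± 11.1 CPM in mdx and 47.3 ± 8.86 CPM in IL5Tg, so the division of reads between the copies is uncertain. The paralogs Gpr137 (12.95 ± 1.63 CPM in mdx_IL5Tg, 9.23 ± 3.19 in mdx and 8.02 ± 1.64 in IL5Tg) and Gpr137c (0.956 ± 0.214, 1.49 ± 0.383 and 1.497 ± 0.339 CPM) were not called.

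Gpr108, a Golgi protein, averaged 28.96 ± 1.71 CPM in mdx_IL5Tg, 20.5 ± 1.98 CPM in mdx and 20.05 ± 1.63 CPM in IL5Tg. It was higher in mdx_IL5Tg by 0.53 (SE 0.14, adjusted p = 0.047 by edgeR) against IL5Tg and 0.50 (SE 0.14, adjusted p = 0.029 by edgeR) against mdx. The first call ended without mdx_IL5Tg S1, mdx_IL5Tg S2, mdx_IL5Tg S3, mdx S6 or any single IL5Tg library, with RLE factors, with library totals only, or with no filter (adjusted p from 0.053 to 0.18), and the second ended without mdx S4, mdx S6 or mdx_IL5Tg S1, with library totals only, or with no filter (adjusted p from 0.056 to 0.29).

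A further set of 7 adhesion receptors, known mainly from connective tissue, vessels or the nervous system, was lower in mdx_IL5Tg than in mdx, as was Gpr153. Of these, Adgra2, Adgrd1, Adgrl1, Adgrl3, Adgrv1 and Gpr153 were also higher in mdx than in IL5Tg. Adgra2 (ENSMUSG00000031486.15, chromosome 8, 27085583 to 27123436, + strand), a co-receptor for Wnt7 ligands in vessels of the brain, was at 4.48, 8.23 and 2.95 CPM in mdx_IL5Tg, 14.5, 15.3 and 12.8 CPM in mdx and 3.58, 2.21 and 3.06 CPM in IL5Tg. Every mdx library was above the other 6. Its fold change was 2.26 (SE 0.35, adjusted p = 0.0017 by edgeR) in mdx against IL5Tg, kept under all 17 alternatives, and -1.44 (SE 0.34, adjusted p = 0.014 by edgeR) in mdx_IL5Tg against mdx, a call that ended without mdx_IL5Tg S1 (adjusted p = 0.082).

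The orphan receptor Gpr153 (ENSMUSG00000042804.13, chromosome 4, 152274232 to 152285337, + strand) showed the same pattern, with 3.16, 3.73 and 1.93 CPM in mdx_IL5Tg, 8.14, 8.30 and 6.17 CPM in mdx and 2.43, 1.46 and 2.01 CPM in IL5Tg. It was at 1.94 (SE 0.31, adjusted p = 0.0019 by edgeR) in mdx against IL5Tg, kept throughout the 17 alternatives, and at -1.36 (SE 0.30, adjusted p = 0.011 by edgeR) in mdx_IL5Tg against mdx. The second call ended without mdx_IL5Tg S1 (adjusted p = 0.052).

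Adgrl1 (ENSMUSG00000013033.16, chromosome 8, 83900105 to 83941954, + strand), a latrophilin that binds teneurins at synapses, was at 3.67, 4.10 and 2.43 CPM in mdx_IL5Tg, 8.79, 8.37 and 9.14 CPM in mdx and 4.99, 3.25 and 5.33 CPM in IL5Tg. The mdx libraries were highest, without overlap. It was at -1.36 (SE 0.26, adjusted p = 0.0057 by edgeR) in mdx_IL5Tg against mdx, kept under all 17 alternatives, and at 0.96 (SE 0.26, adjusted p = 0.027 by edgeR) in mdx against IL5Tg. The second call ended without mdx S4, mdx S6 or any single IL5Tg library, or without both IL5Tg S7 and mdx S5 (adjusted p from 0.055 to 0.11). Exons of Adgrl1 overlap Gm10644 on the opposite strand over 12.9% of their bases, and Gm10644 was at 0 to 0.0209 CPM.

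The latrophilin Adgrl3 averaged 0.402 ± 0.135 CPM in mdx_IL5Tg, 1.501 ± 0.378 CPM in mdx and 0.421 ± 0.101 CPM in IL5Tg and was called in mdx_IL5Tg against mdx, -1.90 (SE 0.42, adjusted p = 0.011 by edgeR), and in mdx against IL5Tg, 1.83 (SE 0.43, adjusted p = 0.014 by edgeR). These calls ended without mdx_IL5Tg S1 or mdx S4 (adjusted p from 0.061 to 0.065) and without mdx S4, or without both IL5Tg S7 and mdx S5 (adjusted p from 0.053 to 0.061). Adgrd1, an adhesion receptor that raises cyclic AMP, averaged 1.32 ± 0.520 CPM in mdx_IL5Tg, 3.76 ± 1.01 CPM in mdx and 1.06 ± 0.612 CPM in IL5Tg, with -1.52 (SE 0.46, adjusted p = 0.037 by edgeR) in mdx_IL5Tg against mdx and 1.83 (SE 0.47, adjusted p = 0.020 by edgeR) in mdx against IL5Tg. These calls ended without mdx_IL5Tg S1, mdx_IL5Tg S3, mdx S4, mdx S6 or IL5Tg S7 (adjusted p from 0.060 to 0.15) and without mdx S4, mdx S6, IL5Tg S7 or IL5Tg S8 (adjusted p from 0.056 to 0.060). Adgrv1, the very large receptor of inner ear hair cells, averaged 0.114 ± 0.0207 CPM in mdx_IL5Tg, 0.628 ± 0.277 CPM in mdx and 0.125 ± 0.0533 CPM in IL5Tg, and passed the count filter through mdx. It was at -2.40 (SE 0.61, adjusted p = 0.019 by edgeR) in mdx_IL5Tg against mdx and at 2.30 (SE 0.63, adjusted p = 0.026 by edgeR) in mdx against IL5Tg, and the calls ended without mdx_IL5Tg S1, mdx_IL5Tg S2, mdx_IL5Tg S3 or mdx S4 (adjusted p from 0.060 to 0.081) and without mdx S4, mdx S5 or any single IL5Tg library, with no filter, or without both IL5Tg S7 and mdx S5 (adjusted p from 0.055 to 0.13).

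The latrophilin Adgrl2 averaged 19.5 ± 6.82 CPM in mdx_IL5Tg, 41.7 ± 12.1 CPM in mdx and 24.05 ± 2.66 CPM in IL5Tg. It was lower in mdx_IL5Tg than in mdx, at -1.10 (SE 0.27, adjusted p = 0.017 by edgeR), a call that ended without mdx_IL5Tg S1, mdx_IL5Tg S3, mdx S4 or mdx S6, or with only the groups compared (adjusted p from 0.050 to 0.091). Adgra3, a relative of Adgra2, averaged 2.56 ± 0.946 CPM in mdx_IL5Tg, 5.48 ± 1.20 CPM in mdx and 3.56 ± 0.413 CPM in IL5Tg, with -1.10 (SE 0.31, adjusted p = 0.030 by edgeR) in mdx_IL5Tg against mdx. Its call ended without mdx_IL5Tg S1, mdx_IL5Tg S3, mdx S4, mdx S6 or any single IL5Tg library, or with only the groups compared (adjusted p from 0.053 to 0.15).

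The fibroblast and endothelial markers are set beside these receptors. By library, the fibroblast sum was 1372, 2881 and 718 CPM in mdx_IL5Tg, 6420.2, 10643 and 4236 CPM in mdx and 1385, 931 and 2195 CPM in IL5Tg, with none of the 7 markers at 0. Of these, 6 were called lower in mdx_IL5Tg than in mdx and 6 higher in mdx than in IL5Tg. The sum of 8 endothelial markers was 625, 783 and 338 CPM in mdx_IL5Tg, 812, 783 and 903 CPM in mdx and 752, 541 and 702 CPM in IL5Tg, with 1 marker lower in mdx_IL5Tg than in mdx, 2 higher in mdx than in IL5Tg and none at 0. Adgra2, Gpr153, Adgrd1 and Adgrl3 were highest in mdx, the group with the highest fibroblast sum, as were Adgra3, Adgrl1, Adgrl2 and Adgrv1. The sums of macrophage, muscle fibre and muscle stem cell markers were also highest in mdx. Within mdx, S5 had the highest fibroblast sum, which was mostly Col1a1, Col1a2 and Col3a1 (5317, 3034 and 2218 CPM). Dcn, Lum and Dpt were lowest in mdx S5 (32.7, 12.6 and 11.2 CPM), and Pdgfra lay between S4 and S6. Adgra2, Gpr153 and Adgrv1 were highest in mdx S5, and Adgrl3 lay between S4 and S6. Adgra3, Adgrl1, Adgrl2 and Adgrd1 were lowest in mdx S5. For Adgrd1 this was 2.61 CPM in S5 with 4.19 CPM in S4 and 4.49 CPM in S6. The part of these markers in the results was not tested. Adgrf5 and Adgrl4, receptors known from endothelium, were called in no comparison: Adgrf5 averaged 70.5 ± 30.98 CPM in mdx_IL5Tg, 131 ± 48.5 CPM in mdx and 109.9 ± 23.2 CPM in IL5Tg, and Adgrl4 averaged 19.6 ± 9.69, 34.9 ± 7.89 and 25.1 ± 8.53 CPM in these groups.

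**Figure D4:**
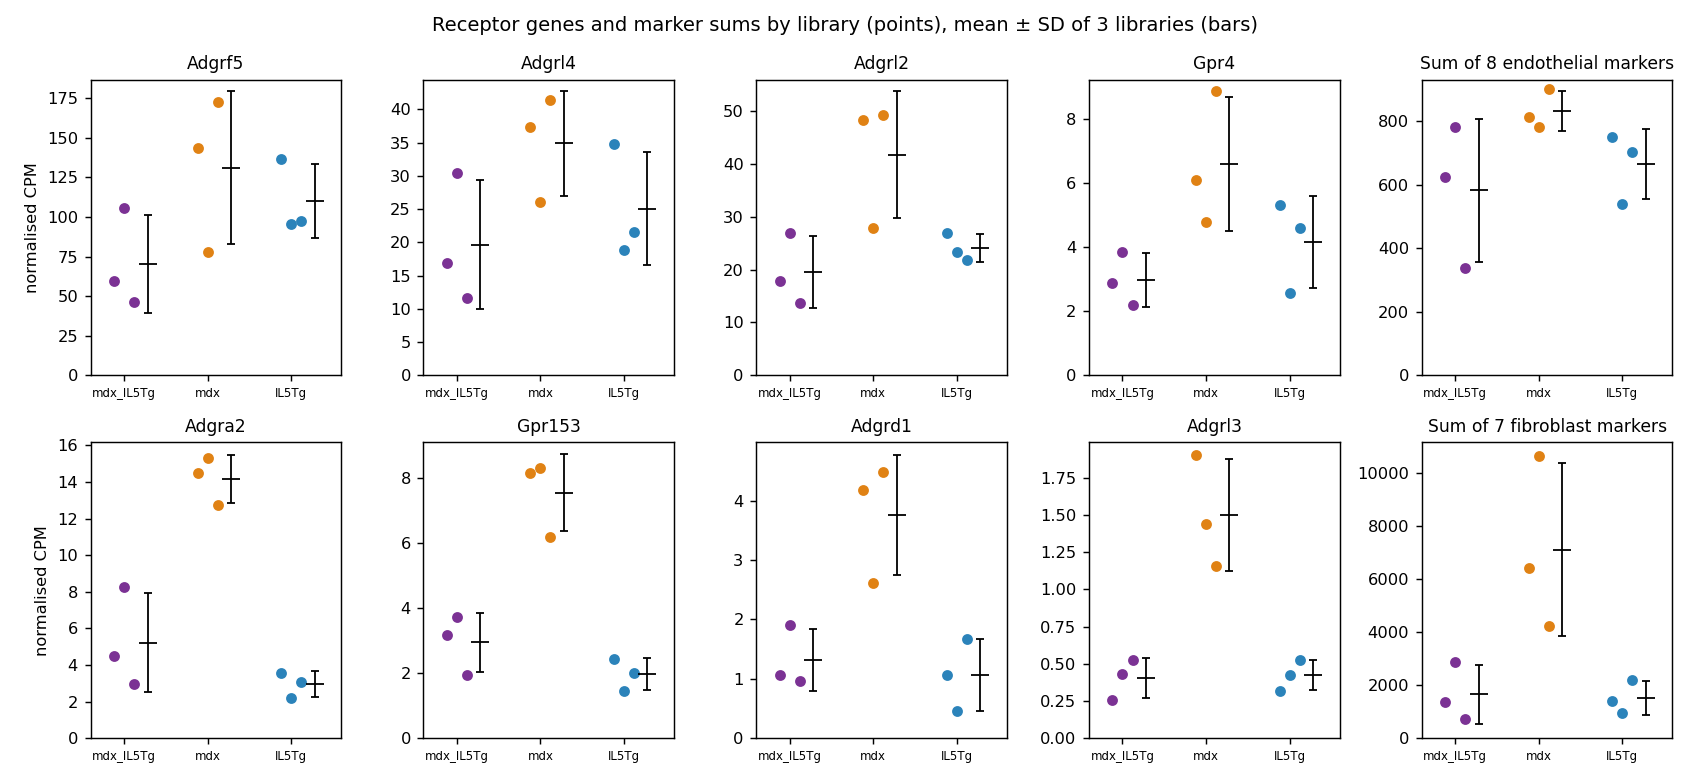
TMM-normalised CPM per library of 4 receptors beside the sum of 8 endothelial markers (upper row) and of 4 receptors beside the sum of 7 fibroblast markers (lower row); points are libraries, bars give the mean ± SD of 3 libraries, and the groups run mdx_IL5Tg, mdx, IL5Tg from left to right. The lower-row receptors and the fibroblast sum are highest in mdx, whose fibroblast sums run from 4236 to 10643 CPM. The means of the upper-row receptors are also highest in mdx.

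By role, the 17 tested adhesion receptors had 1 higher in mdx_IL5Tg against IL5Tg (4.35% of all tested genes were), 3 higher and 7 lower in mdx_IL5Tg against mdx (10.1% and 11.5% of all genes), and 6 higher and 1 lower in mdx against IL5Tg (11.8% and 8.96% of all genes). Their median log2 fold changes were -0.11, -0.83 and 0.48 in this order of comparisons, beside -0.05, -0.13 and 0.01 over all tested genes. None of the 3 constitutively active receptors that raise cyclic AMP (Gpr3, Gpr6 and Gpr12) passed the count filter, and the 1 tested member of the SREB family of brain receptors was not called.

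The proteins that carry the receptors' signals were counted over 75 listed genes, of which 73 were measured and 60 tested. In mdx_IL5Tg against IL5Tg, 2 were higher and 1 lower, beside 4.35% and 2.87% of all tested genes. In mdx_IL5Tg against mdx, 12 were higher and 13 lower, beside 10.1% and 11.5% of all genes, and in mdx against IL5Tg 9 were higher and 4 lower, beside 11.8% and 8.96%; the same shares apply to the classes below. Among 23 tested G protein subunits, Gnai2 was higher in mdx_IL5Tg than in IL5Tg, 5 were higher and 4 lower in mdx_IL5Tg against mdx, and 3 were higher and 3 lower in mdx against IL5Tg. Among 12 tested RGS proteins, which end G protein signals, 3 were higher and 4 lower in mdx_IL5Tg against mdx and 2 higher in mdx against IL5Tg. Among 18 tested cyclases and phosphodiesterases, which make and break cyclic AMP, 3 were higher and 4 lower in mdx_IL5Tg against mdx, and 3 higher and 1 lower in mdx against IL5Tg; Pde4d was higher and Pde4c lower in mdx_IL5Tg against IL5Tg. Among 7 tested receptor kinases and arrestins, which silence active receptors, Arrb1 was higher and Adrbk2 lower in mdx_IL5Tg than in mdx. These counts moved by more than 1.5 times without mdx_IL5Tg S1 (7 higher and 2 lower in mdx_IL5Tg against mdx), with 2 lower without mdx_IL5Tg S3, 4 without mdx S4 or S6, 8 without IL5Tg S8 and 7 without IL5Tg S9. In mdx against IL5Tg the higher count was 4 or 5 without mdx S4, mdx S6, IL5Tg S7, IL5Tg S8 or IL5Tg S9, and the lower count was 2 without IL5Tg S9. In mdx_IL5Tg against IL5Tg, 12 were higher without mdx S5, 4 without mdx_IL5Tg S3, 1 without mdx_IL5Tg S2, mdx S4, mdx S6 or IL5Tg S8, and 0 without mdx_IL5Tg S1, IL5Tg S7 or IL5Tg S9.

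Pde7a, a phosphodiesterase of leukocytes that breaks down cyclic AMP, was at 81.9, 74.2 and 76.1 CPM in mdx_IL5Tg, 18.7, 21.6 and 21.8 CPM in mdx and 67.6, 76.4 and 79.03 CPM in IL5Tg. The mdx libraries were far below both transgenic groups, which overlapped. Its fold change was 1.90 (SE 0.13, adjusted p = 6.6e-06 by edgeR) in mdx_IL5Tg against mdx and -1.84 (SE 0.13, adjusted p = 9.0e-06 by edgeR) in mdx against IL5Tg. The G protein gamma subunit Gng12 followed the same order, averaging 169 ± 7.76 CPM in mdx_IL5Tg, 85.1 ± 25.2 CPM in mdx and 174 ± 14.9 CPM in IL5Tg, with 0.99 (SE 0.20, adjusted p = 0.0067 by edgeR) and -1.03 (SE 0.20, adjusted p = 0.0051 by edgeR) in these 2 comparisons. Adcy3, an adenylyl cyclase, averaged 1.54 ± 0.581 CPM in mdx_IL5Tg, 4.54 ± 0.593 CPM in mdx and 0.897 ± 0.174 CPM in IL5Tg, with -1.55 (SE 0.34, adjusted p = 0.0098 by edgeR) and 2.33 (SE 0.35, adjusted p = 0.0015 by edgeR). Adrbk2, a receptor kinase, averaged 2.01 ± 0.467 CPM in mdx_IL5Tg, 7.02 ± 0.249 CPM in mdx and 2.72 ± 0.949 CPM in IL5Tg, with -1.80 (SE 0.30, adjusted p = 0.0027 by edgeR) and 1.37 (SE 0.30, adjusted p = 0.0094 by edgeR).

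Gna15, an alpha subunit of blood cells that couples to many receptors, averaged 149 ± 12.2 CPM in mdx_IL5Tg, 75.6 ± 9.05 CPM in mdx and 109 ± 18.9 CPM in IL5Tg and was higher in mdx_IL5Tg than in mdx by 0.98 (SE 0.15, adjusted p = 0.0021 by edgeR). The inhibitory alpha subunit Gnai3 averaged 601 ± 3.78 CPM in mdx_IL5Tg, 359 ± 50.4 CPM in mdx and 539 ± 50.4 CPM in IL5Tg, with 0.74 (SE 0.14, adjusted p = 0.0047 by edgeR) in the same comparison. Rgs2 averaged 664 ± 46.5 CPM in mdx_IL5Tg, 398 ± 40.1 CPM in mdx and 489 ± 55.2 CPM in IL5Tg, with 0.74 (SE 0.14, adjusted p = 0.0049 by edgeR). Rgs10 averaged 2.03 ± 0.437 CPM in mdx_IL5Tg, 5.35 ± 1.38 CPM in mdx and 1.80 ± 0.731 CPM in IL5Tg and was higher in mdx than in IL5Tg by 1.57 (SE 0.36, adjusted p = 0.012 by edgeR). These 8 partners hold the 12 partner calls that were kept under all 17 alternatives; the other 29 ended under at least 1.

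**Figure D5:**
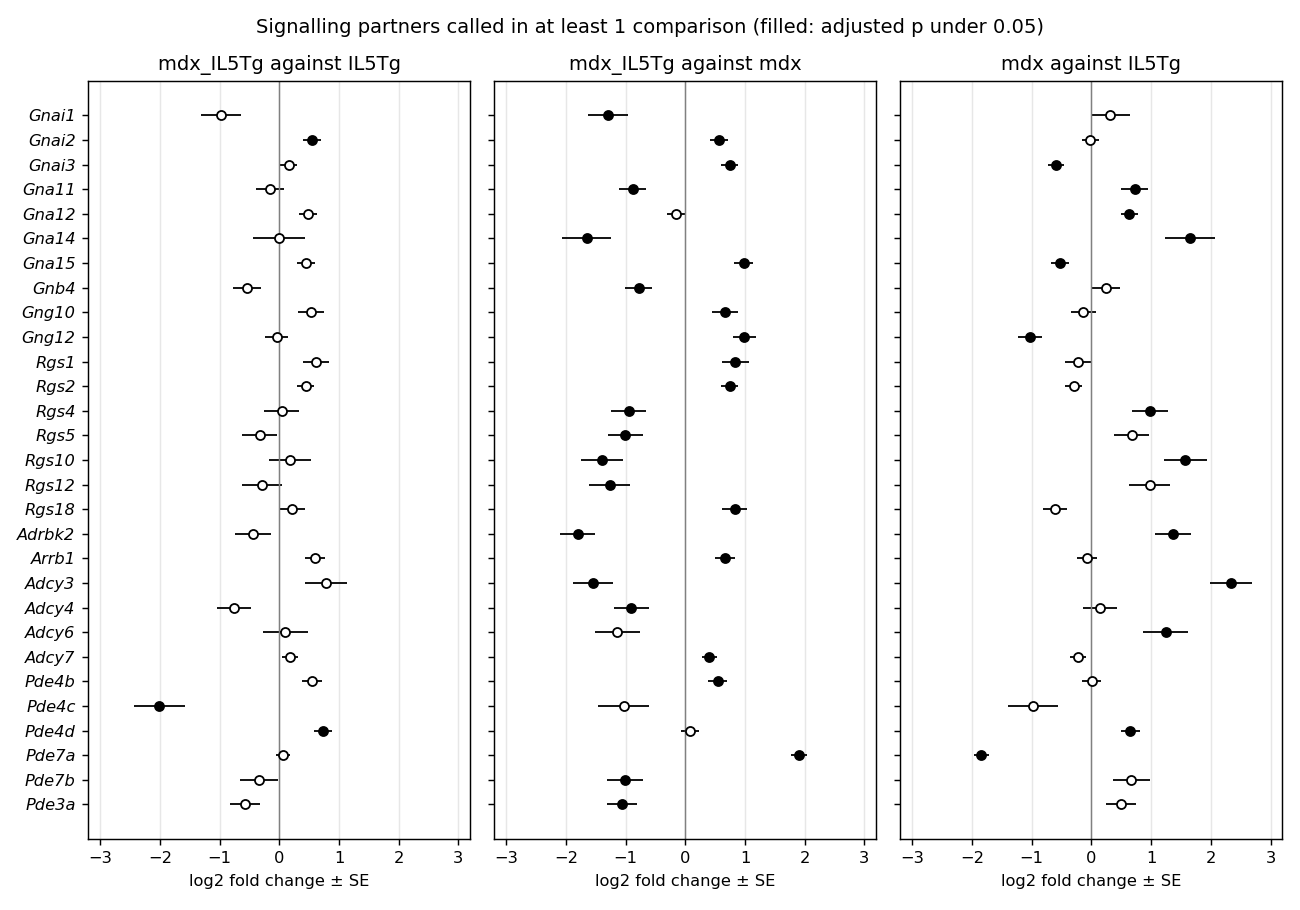
Log2 fold change (point) with its standard error (bar) of the 29 signalling partners called in at least 1 comparison, one panel per comparison. Filled points passed an adjusted p of 0.05; Pde7a lies far right of 0 in mdx_IL5Tg against mdx and far left in mdx against IL5Tg, with Adcy3 on the opposite sides.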

How the data were processed

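RNA was measured in 9 libraries of sorted muscle eosinophils (3 groups of 3). Per the submitters' processing notes, the authors used RSEM 1.3.0, STAR 2.5.3, cutadapt 2.10 and limma on build mm10; the settings, the annotation and the strand are not given in these sources. The authors deposited 1 table of unnormalised expected counts for all genes; the 6.03% that were not whole were rounded first. RSEM divides reads shared by similar or overlapping genes by estimation: exons of 28 of the 98 receptors overlap a gene on the opposite strand and of 6 a gene on the same strand. Columns are named by group and an S number absent from the labels, and libraries are called by both.

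In R 4.3.3, edgeR 4.0.16 kept genes by filterByExpr (minimum count 10), which left 15886, scaled libraries by TMM and tested groups with the robust quasi-likelihood test in 1 fit of all 9 libraries, with Benjamini-Hochberg adjustment and calls under 0.05. Standard errors come from the F statistic. Levels are TMM-normalised CPM with SD over 3 libraries, divided by merged exon length for comparisons between genes. Positions and exons are from GENCODE M21 (GRCm38), in which 54079 of the table's identifiers were found. The fit was also run on simulated counts, drawn from a pooled mean per gene and a spread set by expression level. Its outcome is not given here. Such counts lack the spread of single genes, so that run does not check the calls above. Pearson's r across genes within groups was 0.957 to 0.987, and every pair of libraries differed by more than sampling noise.

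Receptors named with values were those called in a comparison (1 is not reported here), the 10 highest per kilobase and their close paralogs; values in every library are given for the 12 with the smallest adjusted p and the 5 highest. Gpr34, Gpr183, Adgrl4, Adgrg1 and Adgrg3 were named after their values were seen, as were the 8 partners, picked because their calls held. Members, roles, partners and marker lists were chosen with earlier results of these data known. The alternatives were DESeq2 1.42.0, limma 3.58.1 voom, a stricter filter (50 counts in 3 libraries) and none, RLE factors and library totals only, a fit of only the groups compared, and the removal of each library and of IL5Tg S7 with mdx S5; those for partners were chosen after seeing the data.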

Additional observations from a re-analysis of the deposited data

How the results depend on the processing

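Of 43 receptor calls, 21 were kept under every alternative run and 22 ended under at least 1; of 41 partner calls, 12 were kept and 29 ended. None changed direction. The receptor calls include 7 of Gpr174, Adgrv1, Gpr84 and Gpr45, which passed the count filter through their highest group. The 2 of Gpr174 are among the 21. These 4 genes and Adgrl3 were tested in 16 alternatives, because the stricter filter removed them. With library totals only, the receptors had 6 higher and 19 lower in mdx_IL5Tg against mdx (10 and 11 with TMM), and the partners had 0 higher in mdx_IL5Tg against IL5Tg (edgeR; 5 at an unadjusted p under 0.05), 5 higher and 24 lower in mdx_IL5Tg against mdx and 15 higher in mdx against IL5Tg; that scaling moved the median of all genes from -0.05, -0.13 and 0.01 to -0.27, -0.46 and 0.12 in mdx_IL5Tg against IL5Tg, mdx_IL5Tg against mdx and mdx against IL5Tg. The stricter filter, which tested 37 receptors, left 7 lower in mdx_IL5Tg against mdx, as did the fit of only the groups compared, where 8 partners were lower. DESeq2 called 10 receptors lower in mdx against IL5Tg. Partners higher in mdx_IL5Tg against IL5Tg (2 in the main test) numbered 1 with RLE factors or the stricter filter, 6 with no filter, 8 with DESeq2, 4 with limma voom, 7 with only the groups compared and 8 without both IL5Tg S7 and mdx S5; with no filter and with DESeq2, 2 were lower.

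With each library left out, higher and lower receptors numbered 3 to 7 and 1 to 4 in mdx_IL5Tg against IL5Tg, 8 to 12 and 2 to 12 in mdx_IL5Tg against mdx, and 5 to 10 and 4 to 9 in mdx against IL5Tg. Partners numbered 0 to 12 higher and 0 to 1 lower, 7 to 17 and 2 to 14, and 4 to 10 and 2 to 6 in the same order. The cause of these moves was not tested. Low counts limit Gpr174, Gpr84, Gpr45 and Adgrv1. No paired analysis was possible because the columns carry S numbers and not the replicate numbers of the labels.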

Other observations

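Marker lists without values above were also present. Skeletal muscle fibre markers (8 genes) summed to 17.01 to 20.6 CPM in mdx_IL5Tg, 58.3 to 139.5 CPM in mdx and 5.41 to 8.21 CPM in IL5Tg. Muscle stem cell markers (5 genes) summed to 1.72 to 4.003 CPM in mdx_IL5Tg, 9.61 to 12.9 CPM in mdx and 0.857 to 1.36 CPM in IL5Tg. B cell markers (6 genes) summed to 16.1 to 18.9 CPM in mdx_IL5Tg, 11.4 to 15.4 CPM in mdx and 17.9 to 35.6 CPM in IL5Tg, and mast cell and basophil markers to 20.01 to 22.2, 25.9 to 43.97 and 14.7 to 29.1 CPM in these groups.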
